A study of Mus musculus with 6 samples.

Results

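The tubulin genes, the folding cofactors that assemble tubulin dimers and the enzymes that modify or sever microtubules were described in the testes of 6 cadmium-exposed mice. Members were the genes whose symbols begin with Tuba, Tubb, Tubg, Tubd, Tube, Tubgcp, Ttll, Agbl, Vash or Katn, together with Tbca, Tbcb, Tbcc, Tbcd and Tbce. The annotation holds 58 such symbols, and 51 of them had at least 1 listed transcript among the 14000 genes of the table. Tubal3, Tubb1, Tubb2b, Tubb4a and the pseudogenes Tubb2a-ps2, Tubb4b-ps1 and Tubb4b-ps2 had none and were not analysed here.

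All 6 animals were wild-type C57BL/6N males, 3 in each group, and all drank cadmium chloride, a testicular toxicant, for 10 weeks. The H+Cd males (HFD1D in the study) were of the F1 generation, and their fathers had eaten a high-fat diet from week 5 to week 15 of life. The H+H+Cd males (HFD2D) were of the F2 generation, with both a grandfather and a father on that diet. Generation and diet history therefore cannot be told apart, and animals without cadmium or without a paternal high-fat diet were not analysed here. The study states that males were taken from separate litters, so the 6 libraries were treated as 6 animals.

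Microtubules are hollow polymers of alpha and beta tubulin dimers. Newly made tubulin leaves the chaperonin and is passed to the cofactors, of which Tbcb and Tbce handle alpha tubulin, Tbca and Tbcd handle beta tubulin, and Tbcc completes release of the dimer. The acidic tails of both proteins stick out of the polymer and are written upon after assembly: ligases of the Ttll family add glutamate or glycine chains, carboxypeptidases of the Agbl family trim them, and vasohibins remove the final tyrosine of alpha tubulin. In the testis, microtubules build the meiotic spindle, the manchette that shapes the spermatid head and the axoneme of the sperm tail, and loss of several of these enzymes in mice disturbs sperm tails or motility.

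The tails differ between isotypes, and whether an isotype ends in tyrosine decides whether a vasohibin has a residue to remove. The last 60 coding bases of 5 isotypes are shown for this reason, read 5′ to 3′ from GENCODE M21 transcripts (GRCm38, the mm10 build), with the last codon before the stop in capitals.
Tuba3a, chr6:125278358-125278417, minus strand: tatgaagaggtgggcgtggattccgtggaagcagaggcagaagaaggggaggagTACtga
Tuba4a, chr1:75215622-75215681, minus strand: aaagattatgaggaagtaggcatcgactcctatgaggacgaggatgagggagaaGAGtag
Tuba8, chr6:121226020-121226079, plus strand: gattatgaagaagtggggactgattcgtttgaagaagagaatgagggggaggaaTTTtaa
Tubb4b, chr2:25222308-25222367, minus strand: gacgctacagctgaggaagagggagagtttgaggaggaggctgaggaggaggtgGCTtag
Tubb3, chr8:123421623-123421682, plus strand: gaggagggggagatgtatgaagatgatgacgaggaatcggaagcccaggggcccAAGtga
Each stretch lies within 1 exon. A tyrosine codon stands last in Tuba1a, Tuba1b, Tuba1c, Tuba3a and Tuba3b, a glutamate codon in Tuba4a and a phenylalanine codon in Tuba8. Tuba3b, at chr6:145621328-145621387, carries the same 60 bases as Tuba3a. Across their coding sequences of 1353 bases these genes differ at 41 bases, and 2.6% of the 150-base windows of Tuba3a also occur in Tuba3b. The ubiquitous isotypes are harder to separate, since 29.4% of the 150-base windows of Tuba1a, 43.4% of those of Tuba1b and 46.7% of those of Tuba1c occur in another member. The split of reads among Tuba1a, Tuba1b and Tuba1c is therefore uncertain. Tuba4a, Tuba8 and the 5 beta isotypes shared no such window with another listed member. Tubulin genes and pseudogenes without a listed transcript, among them Tubb2b, Tubb4a and Tubb4b-ps1, were not compared.

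Levels are given as FPKM (fragment counts corrected for transcript length and for library size), summed over the listed transcripts of a gene. Whole profiles were alike in the 6 libraries, with a summed FPKM of 382815 to 397147 and Pearson's r across genes of 0.9725 to 0.9846. The table holds no counts, so read depth is unknown. Spermatid markers summed to between 11770 and 17090 FPKM in H+Cd and between 13610 and 14550 in H+H+Cd, with 6 of 6 measured. The spermatocyte marker sum (4 of 4 measured) was lower in each H+H+Cd library, at 535 to 561 against 594 to 638. So was the spermatogonial marker sum (4 of 4), at 72.0 to 75.8 against 78.1 to 85.7. Most of the spermatogonial sum was Dazl, at 62.7 to 71.5 FPKM. Sycp1, Sycp3, Hormad1, Dazl, Kit and Zbtb16 were each lower without overlap, whereas Ccna1 (spermatocytes) and Stra8 (spermatogonia) overlapped between groups. The macrophage marker sum (3 of 4, with Cd163 not listed) was higher, at 4.69 to 6.70 against 3.18 to 4.58. Of its genes Csf1r alone did not overlap, at 1.67 to 2.48 FPKM against 1.39 to 1.50. Cd68 and Adgre1 overlapped between groups, and Adgre1 was lowest in H+H+Cd 3, at 0.587. Sertoli cell markers (6 of 7, with Amh not listed) summed to between 294 and 330 FPKM over all 6 libraries. Most of that sum was Clu, at 232 to 261 FPKM. Single Sertoli markers differed in direction. Cldn11 and Sox9 were lower in each H+H+Cd library than in any H+Cd library, Gata4 and Rhox5 were higher, and Clu and Wt1 overlapped. Leydig cell markers (5 of 5) summed to between 217 and 507, the lowest in H+Cd 2. Peritubular myoid markers (4 of 4) summed to between 31.4 and 32.6 FPKM in H+Cd and between 32.5 and 35.6 in H+H+Cd. Des and Myh11 were higher in each H+H+Cd library than in any H+Cd library, and Acta2 and Cnn1 overlapped. Epididymal markers (2 of 5) reached 94.1 FPKM in H+H+Cd 1 and at most 0.293 in the others, and placental markers (6 of 6) reached 160.1 in H+H+Cd 1 against 6.28 to 22.5. The part of these differences in the results on tubulin genes was not tested, and gene differences that rest on H+H+Cd 1 are given without it too. For transcripts, values are given by library instead. In bulk tissue, fewer cells of a type and less RNA per cell cannot be told apart.

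The testis isotypes Tuba3a and Tuba3b made up most of the alpha tubulin RNA. Tuba3a, the most abundant alpha isotype, was at 306, 346 and 367 FPKM in H+Cd 1, 2 and 3 and at 375, 387 and 297 in H+H+Cd 1, 2 and 3. Tuba3b was at 212 to 291 FPKM over the 6 libraries. The sets of libraries overlapped for both genes, and Tuba3a and Tuba3b moved together, since the ratio of Tuba3a to Tuba3b stayed between 1.33 and 1.41. Together they held 71.4% ± 2.04 (SD, n = 3) of alpha tubulin FPKM in H+Cd and 71.9% ± 4.20 (SD, n = 3) in H+H+Cd. Tuba8, the isotype that ends in phenylalanine, came next at 93.0 to 115 FPKM. The ubiquitous Tuba1a, Tuba1b and Tuba1c lay between 20.5 and 35.8 FPKM each and held 8.66% to 12.5% of the sum. Isotypes with a final tyrosine codon held 79.2% to 86.1% of alpha tubulin FPKM.

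Tuba4a, which is made without the final tyrosine, varied most among the alpha isotypes. Its sum was 35.0, 62.6 and 33.5 FPKM in H+Cd and 41.8, 31.6 and 59.6 in H+H+Cd, so H+Cd 2 and H+H+Cd 3 were high and neither group was. Most of this sum came from Tuba4a-203, a transcript of 782 bases with 300 coding bases, at 22.5 to 36.2 FPKM. Tuba4a-202, which carries the coding sequence of 1347 bases whose end is shown, was at 2.15, 24.1 and 2.15 FPKM in H+Cd and at 13.2, 2.41 and 27.5 in H+H+Cd. The RNA that encodes the complete protein was thus the lesser part of the Tuba4a level in each library.

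One isotype dominated the beta tubulins. Tubb4b, a beta tubulin of axonemes, was at 425, 400 and 405 FPKM in H+Cd and at 431, 444 and 430 in H+H+Cd, the highest level among the 51 members. It held 90.7% ± 0.242 (SD, n = 3) of beta tubulin FPKM in H+Cd and 91.2% ± 0.180 (SD, n = 3) in H+H+Cd. Tubb5 and Tubb6, isotypes found in many cells, followed at 15.2 to 17.3 and 12.5 to 16.9 FPKM. Tubb3, best known from neurons, was at 5.93 to 8.46 FPKM and Tubb2a at 3.61 to 4.38 FPKM. The neighbours Tubb5 and Tubb6 overlapped in level, whereas the other neighbours in this order did not overlap. Summed alpha tubulin was 826 ± 50.1 FPKM (SD, n = 3) in H+Cd and 844 ± 76.8 (SD, n = 3) in H+H+Cd, and summed beta tubulin was 452 ± 14.3 and 477 ± 8.74 (SD, n = 3 each). The summed beta values did not overlap, with 441 to 468 FPKM in H+Cd and 471 to 487 in H+H+Cd, and the alpha values did.

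**Figure D1:**
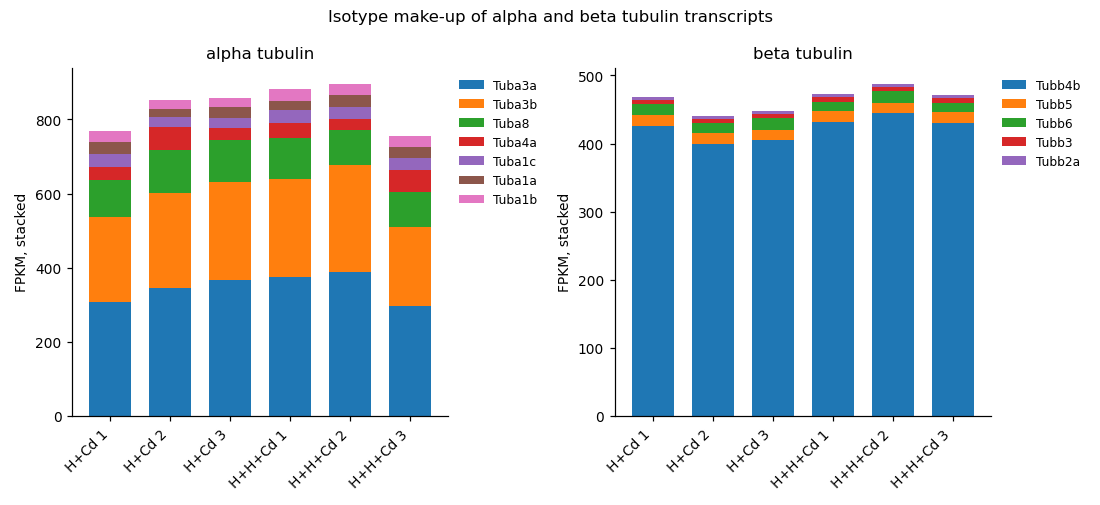
Stacked FPKM of the alpha tubulin genes (left) and beta tubulin genes (right) in each of the 6 libraries, with no error since each bar is 1 testis. Tuba3a and Tuba3b fill 67.4% to 75.7% of each alpha bar, and Tubb4b fills 90.4% to 91.4% of each beta bar.

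Outside the alpha and beta families, levels were lower. Tubd1 (delta tubulin, needed for the triplet microtubules of centrioles) was at 18.9 to 22.7 FPKM and Tubg1 (gamma tubulin, which nucleates microtubules) at 14.0 to 17.4. Tubg2 and Tube1, the second gamma tubulin and epsilon tubulin, were at 0.499 to 0.842 and 0.509 to 1.14 FPKM. Among the subunits that hold gamma tubulin in its ring, Tubgcp2 was at 19.6 to 22.8 FPKM, whereas Tubgcp3, Tubgcp4 and Tubgcp6 were at 0.695 to 4.55. The level of Tubgcp2 thus stood well above that of Tubgcp3, its partner in the small complex, at 0.899 to 1.31 FPKM. Tubgcp5 had no steady level, at 3.60, 2.72 and 0.0552 FPKM in H+Cd and 3.07, 0.321 and 3.51 in H+H+Cd. Its transcript Tubgcp5-205 was listed at 0 in the low libraries, H+Cd 3 and H+H+Cd 2, and at 2.48 to 3.59 in the others.

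Of the modifiers, Ttll13 led the ligases at 127 to 148 FPKM and Agbl5 led the trimming enzymes at 110 to 145. Ttll13 extends glutamate chains, and Agbl5 removes the glutamate at their branch point. The glycine ligase Ttll10 (74.7 to 87.7 FPKM), which lengthens glycine chains, stood above Ttll8 (26.9 to 37.1) and Ttll3 (7.24 to 12.0), which start them. The other glutamate ligases ranged from Ttll5 at 52.3 to 81.4, Ttll6 at 51.7 to 60.1 and Ttll9 at 36.6 to 83.7 FPKM down to Ttll1, Ttll2, Ttll4, Ttll7 and Ttll11, which lay between 5.98 and 15.8. Levels within that last set overlapped in part, and Ttll2 was placed among the glutamate ligases by family. Ttll12, which has no known ligase activity, was at 1.87 to 2.11 FPKM in 5 libraries and at 0.0668 in H+H+Cd 3.

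The carboxypeptidases Agbl2 and Agbl4 were at 38.1 to 45.5 and 31.2 to 44.1 FPKM, Agbl3 was at 3.77 to 5.01, and Agbl1 at 0.638 to 0.911. Agbl2 and Agbl4 overlapped in level, and Agbl3 and Agbl1 lay apart from them and from each other. Vash2, the more abundant of the vasohibins, was at 39.9 FPKM in H+Cd 1 and at 8.66 to 12.5 in the other 5 libraries. Vash1 was at 0.670 to 1.59 FPKM. Among the katanins, which cut microtubules, the catalytic subunits Katnal1 (23.0 to 30.6 FPKM) and Katnal2 (15.0 to 34.1) overlapped in level, with Katna1 at 14.1 to 19.4 and Katnbl1 at 2.66 to 3.45. Of all 51 members, 7 had a mean of at least 100 FPKM, 26 lay between 10 and 100, 14 between 1 and 10, and 4 below 1.

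**Figure D2:**
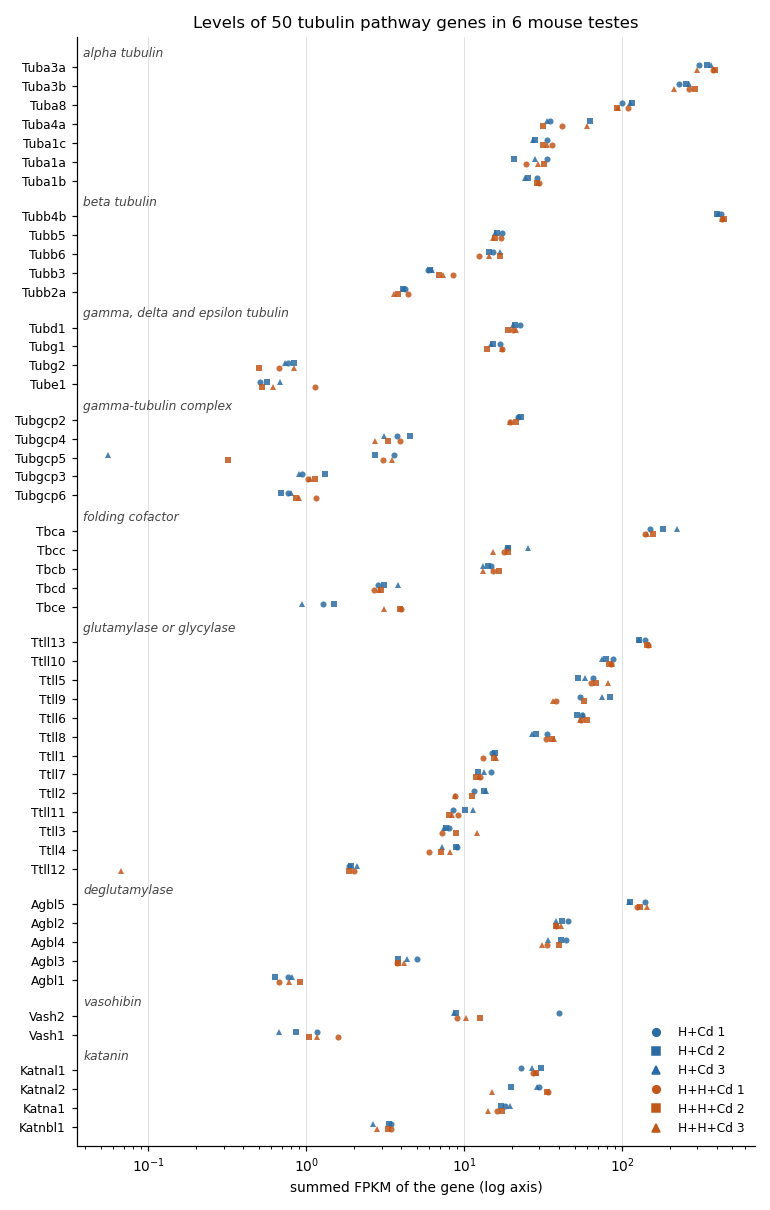
Summed FPKM (log axis) of 50 of the 51 genes, grouped by role, with 1 point per library (colour for the group, shape for the replicate). Tubb4b, Tuba3a and Tuba3b stand highest, and the isolated points are Vash2 in H+Cd 1 at 39.9, Ttll12 in H+H+Cd 3 at 0.0668 and Tubgcp5 in H+Cd 3 at 0.0552 and H+H+Cd 2 at 0.321.

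The comparison of H+H+Cd with H+Cd asks whether a further generation of paternal high-fat diet went with other tubulin gene levels in the cadmium-exposed testis. Differences were computed on log2(FPKM + 1) with limma across all 13769 genes whose mean exceeded 0.5 FPKM in at least 1 group, and all 51 members passed that filter. After Benjamini-Hochberg adjustment 0 of 51 members were below 0.05, beside 0.00726% of all genes tested (1 gene), and the smallest adjusted p of a member in limma was 0.189. At an unadjusted p below 0.05 in limma there were 6 members (11.8%), against 11.9% of all genes. The 4 higher in H+H+Cd were Tbce, Tubb3, Ttll13 and Ttll8, where 5.31% of all genes were higher, and the 2 lower were Ttll2 and Ttll9, where 6.59% were lower. By the ordinary F-test there were 7 members at an unadjusted p below 0.05, beside 10.9% of all genes, and 0 after adjustment. The share of members that differed was thus that of the whole table. Left-out libraries moved the unadjusted count of 6 and the share of all genes together. The count was 12 without H+Cd 1 (beside 16.1% of all genes), 2 without H+Cd 2 (8.26%), 3 without H+Cd 3 (7.38%) and 3 without H+H+Cd 3 (9.44%). Without H+H+Cd 1 it was 5 (8.05%), namely Tbce, Ttll8, Ttll3, Ttll5 and Tuba8, of which 2 were among the original 6.

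The groups did not overlap for 8 members (15.7%), against 19.4% of all genes tested. Of these, 6 were higher in each H+H+Cd library than in any H+Cd library, among them Tbce, Tubb3, Tubb4b, Ttll13 and Tubgcp6, as were 8.34% of all genes. The 2 that were lower were Tubgcp2 and Ttll2, as were 11% of all genes. The median log2 difference was 0.02 over members and 0.00 over all genes, with 27 members above 0 and 24 below.

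**Figure D3:**
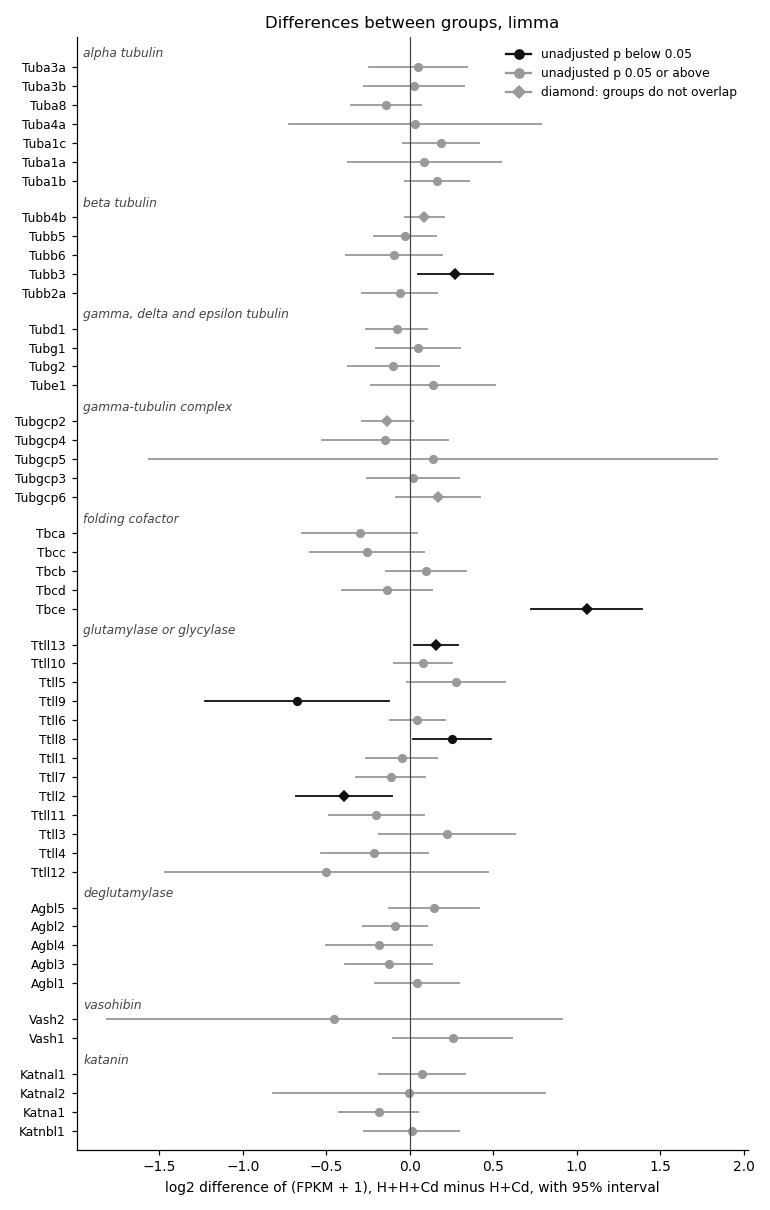
Log2 difference of FPKM + 1 (H+H+Cd minus H+Cd) for 50 of the 51 genes, with limma's 95% interval, black where the unadjusted p was below 0.05 and as a diamond where the groups did not overlap. Tbce is the one interval far from 0, at 1.06, and 44 of the 50 intervals include 0.

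Tbce, the cofactor that captures alpha tubulin and helps join it to beta tubulin, showed the largest difference among the members. Its level was 1.29, 1.49 and 0.937 FPKM in H+Cd 1, 2 and 3 and 3.95, 3.90 and 3.11 in H+H+Cd 1, 2 and 3. Each H+H+Cd library exceeded the highest H+Cd library by more than the range within either group. Mean FPKM was 2.95-fold higher, and the log2 difference of FPKM + 1 was 1.06 (SE 0.136, adjusted p = 0.189 in limma). Without H+H+Cd 1, the library with high epididymal and placental markers, the difference was 1.01 (adjusted p = 0.373 in limma). Over the 15 alternatives it ran from 0.96 to 1.50 with adjusted p from 0.128 to 0.584, and the unadjusted p was below 0.05 in each. Tbce was the one member of which this held, yet it did not pass the adjusted threshold in any of them.

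The Tbce locus has a limit of its own. Tbce spans chr13:13997949-14039638 on the minus strand (mm10), and its level rests on 1 listed transcript, Tbce-201, with 17 exons. B3galnt2, on the opposite strand, overlaps its end, and exons of the listed B3galnt2-201 cover 322 of the 1844 bases of Tbce-201. Whether strand was used in assigning reads is not stated. B3galnt2 itself was at 5.39, 4.61 and 6.80 FPKM in H+Cd and 4.09, 3.42 and 4.87 in H+H+Cd, a log2 difference of -0.36 (adjusted p = 0.443 in limma), which is opposite in sign to that of Tbce.

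The other 4 cofactors did not follow Tbce. Tbca, a beta tubulin cofactor and by far the most abundant, was at 149, 181 and 221 FPKM in H+Cd and 141, 158 and 144 in H+H+Cd, with a log2 difference of -0.30 (SE 0.143, adjusted p = 0.456 in limma). The ranges overlapped through H+Cd 1. Tbcc, which triggers release of the finished dimer, was at 18.7, 18.9 and 25.3 against 17.8, 18.9 and 15.2 FPKM (log2 difference -0.26, adjusted p = 0.508 in limma). Tbcd, the partner of Tbce in the final complex, was at 2.86, 3.09 and 3.81 against 2.68, 2.97 and 2.88 FPKM (log2 difference -0.14, adjusted p = 0.638 in limma). Tbcb, the other alpha tubulin cofactor, was at 14.7, 14.1 and 13.2 against 15.3, 16.6 and 13.2 FPKM (log2 difference 0.09, adjusted p = 0.710 in limma). Without H+Cd 3 the log2 difference was -0.16 for Tbca, -0.12 for Tbcc and -0.05 for Tbcd, and that of Tbcb ran from 0.02 without H+H+Cd 2 to 0.18 without H+H+Cd 3. For these 4 genes the groups overlapped and each 95% interval included 0. The ratio of Tbca to Tbce in FPKM was 116 to 236 in H+Cd and 35.6 to 46.2 in H+H+Cd, a gap that rests on the Tbce values.

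Among the glutamate ligases, Ttll2 (assigned by family) and Ttll9 were lower in H+H+Cd. Ttll2 was at 11.5, 13.4 and 13.7 FPKM in H+Cd and 8.79, 11.2 and 8.80 in H+H+Cd, with no overlap (log2 difference -0.40, SE 0.118, adjusted p = 0.369 in limma). Ttll9, which in mice is needed for glutamylated, motile sperm tails, was at 54.0, 83.7 and 74.5 FPKM in H+Cd and 38.1, 57.7 and 36.6 in H+H+Cd. Its groups overlapped because H+H+Cd 2 lay above H+Cd 1, and the log2 difference was -0.68 (SE 0.227, adjusted p = 0.390 in limma). All 3 listed Ttll9 transcripts had a lower mean in H+H+Cd, with log2 differences of -0.73, -0.49 and -0.69, and the most abundant of them, Ttll9-208, is only 428 bases long. Ttll9 was no longer at an unadjusted p below 0.05 when H+Cd 2, H+Cd 3, H+H+Cd 1 or H+H+Cd 3 was left out. Without H+H+Cd 1 the log2 difference of Ttll9 was -0.59. Ttll2 stayed below that level except without H+H+Cd 1, where its log2 difference still pointed down, at -0.34. Spermatocyte and spermatogonial marker sums were lower in the same libraries, by ranges given above, and their part in these values was not tested.

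Ttll13 and Ttll8 pointed the other way. Ttll13 was at 139, 127 and 128 FPKM in H+Cd and 147, 145 and 148 in H+H+Cd, with a narrow gap between H+Cd 1 and H+H+Cd 2 (log2 difference 0.16, SE 0.055, adjusted p = 0.390 in limma). Ttll8, which starts glycine chains, was at 33.4, 28.4 and 26.9 FPKM in H+Cd and 33.0, 35.8 and 37.1 in H+H+Cd (log2 difference 0.25, SE 0.097, adjusted p = 0.399 in limma). H+Cd 1 and H+H+Cd 1 were level for Ttll8. As each library was left out, the unadjusted p of Ttll13 stayed below 0.05 only without H+Cd 1. That of Ttll8 stayed below 0.05 only without H+Cd 1 or without H+H+Cd 1. Without H+H+Cd 1 the log2 difference was 0.16 for Ttll13 and 0.30 for Ttll8. Over the 13 Ttll genes, 4 were at an unadjusted p below 0.05 (30.8%, beside 11.9% of all genes), 2 in each direction, and 0 passed adjustment. Their summed FPKM was 490 to 504 in H+Cd and 481 to 515 in H+H+Cd. The sum of the family overlapped between groups.

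Of the beta tubulins, Tubb3 was at 5.93, 6.06 and 6.27 FPKM in H+Cd and 8.46, 6.90 and 7.38 in H+H+Cd, with no overlap (log2 difference 0.27, SE 0.092, adjusted p = 0.390 in limma). H+H+Cd 1, the library with high epididymal and placental markers, held the highest value, and without it the log2 difference of Tubb3 was 0.2. Tubb3 was not at an unadjusted p below 0.05 without H+H+Cd 1, without H+Cd 1 or without H+Cd 2. Tubb4b also did not overlap, by a gap of 425 in H+Cd 1 against 430 in H+H+Cd 3, and its mean was 1.06-fold higher (log2 difference 0.09, SE 0.048, adjusted p = 0.513 in limma). Tuba3a had a log2 difference of 0.05 (95% interval -0.24 to 0.34), and its sign turned without H+Cd 1 or without H+H+Cd 2. The intervals of both main isotypes include 0, which does not show that their levels were equal.

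Tubgcp2 and Tubgcp6, which also did not overlap, differed by small amounts. Tubgcp2 was at 21.9, 22.8 and 21.9 FPKM in H+Cd and 19.6, 21.2 and 19.6 in H+H+Cd (log2 difference -0.13, SE 0.063, adjusted p = 0.455 in limma). Tubgcp6 was at 0.765, 0.695 and 0.796 FPKM in H+Cd and 1.16, 0.863 and 0.901 in H+H+Cd (log2 difference 0.17, SE 0.104, adjusted p = 0.552 in limma). For Tubgcp6, as for Tubb3, H+H+Cd 1 was the highest library, and without it the log2 difference of Tubgcp6 was 0.10. The leading members of the other roles overlapped. Agbl5 was at 140, 112 and 110 FPKM in H+Cd and 124, 131 and 145 in H+H+Cd (log2 difference 0.15, adjusted p = 0.616 in limma), and Tubd1 was at 22.7, 21 and 20.4 against 20.5, 18.9 and 21.2 (log2 difference -0.08, adjusted p = 0.683 in limma). Vash2 was at 39.9, 8.90 and 8.66 FPKM in H+Cd and 9.05, 12.5 and 10.3 in H+H+Cd (log2 difference -0.45, adjusted p = 0.761 in limma). Without H+Cd 1 the Vash2 difference was 0.24, so its sign was set by that library.

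**Figure D4:**
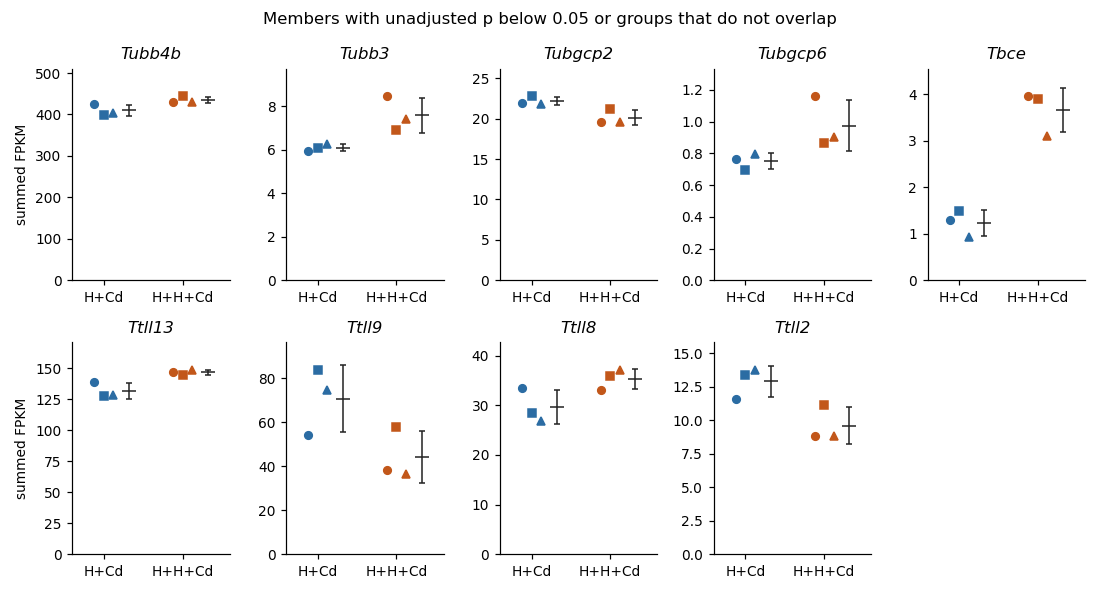
Summed FPKM in each library (points, linear axes from 0) for 9 genes at an unadjusted p below 0.05 or with groups that do not overlap, with the mean and SD of 3 libraries beside each group. The gap is wide for Tbce, at 0.937 to 1.49 against 3.11 to 3.95, narrow for Tubb4b and Ttll13, and absent for Ttll9 and Ttll8.

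The table is given per transcript, and 25 members had more than 1 listed transcript. Of 109 member transcripts tested, 0 had an adjusted p below 0.05, beside 0.13% of all 25322 transcripts, and 15 (13.8%) had an unadjusted p below 0.05 in limma, beside 8.24%. The groups did not overlap for 23 of the 109 member transcripts (21.1%), beside 15.9% of all transcripts tested. Transcripts of 1 gene share reads and are not independent of each other. The 4 of smallest p were Tbce-201, Agbl5-206, Agbl5-203 and Ttll5-213. Agbl5-206 was at 2.60, 2.03 and 2.75 FPKM in H+Cd and 3.71, 4.40 and 5.14 in H+H+Cd, whereas Agbl5-203 was at 5.32, 6.58 and 8.34 against 3.44, 4.02 and 3.96 (adjusted p = 0.486 and 0.50 in limma). Both are minor next to Agbl5-202, which held 61.1% to 65.7% of Agbl5. Ttll5-213, a transcript of 902 bases, was at 12.6, 7.24 and 13.2 FPKM in H+Cd and 21.4, 18.6 and 25.4 in H+H+Cd (adjusted p = 0.511 in limma). These transcripts of Agbl5 thus lay apart in opposite directions.

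In Tubd1 the gene sum overlapped between groups while each of its 4 transcripts did not. Over all transcripts tested, 15.9% did not overlap. The 4 transcripts share reads, so they are not 4 separate observations. Tubd1-203 was at 15.1, 15.4 and 15.1 FPKM in H+Cd and 7.38, 12.8 and 6.48 in H+H+Cd. Tubd1-205 was at 1.28, 1.39 and 1.10 against 7.14, 1.78 and 9.33, and Tubd1-202 at 1.18, 1.42 and 0.908 against 4.21, 1.66 and 3.52. Tubd1-201 was at 5.22, 2.81 and 3.25 against 1.77, 2.65 and 1.82. The transcripts that were lower, Tubd1-203 and Tubd1-201, have 10 exons, and those that were higher, Tubd1-205 and Tubd1-202, have 9. Each had an unadjusted p below 0.05 in limma and an adjusted p of 0.572 to 0.60.

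What sets the pairs apart is 1 coding exon of 93 bases, or 31 codons, so that both forms keep the same frame. It is exon 6 of Tubd1-203, at chr11:86556695-86556787 on the plus strand (mm10), and is shown because the shift falls on it.
Tubd1 exon 6: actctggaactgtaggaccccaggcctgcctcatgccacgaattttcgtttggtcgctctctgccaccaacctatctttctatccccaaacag
Transcripts with the exon held 89.2%, 86.6% and 90.2% of Tubd1 FPKM in H+Cd 1, 2 and 3 and 44.6%, 81.8% and 39.2% in H+H+Cd 1, 2 and 3. H+H+Cd 1 and H+H+Cd 3 were therefore far from the H+Cd range, and H+H+Cd 2 lay just below it. Without H+H+Cd 1, the library with high epididymal and placental markers, H+H+Cd 3 alone was far from that range. The longer first exon, of 346 in place of 240 bases, had shares of 20.0% to 28.6% in H+Cd and 43.5%, 23.4% and 52.7% in H+H+Cd. Its groups overlapped, since H+H+Cd 2 lay within the H+Cd range. Exon 6 was singled out after its values had been seen, so the shares are a description with no test. They were estimated from reads that mostly do not tell the transcripts apart, since 78.7% of the 150-base windows of Tubd1-203 also occur in Tubd1-205.

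Ttll6, a glutamate ligase of cilia and sperm tails, had transcripts that lay apart while their sum overlapped. Ttll6-202 was at 47.7, 40.0 and 43.8 FPKM in H+Cd and 48.8, 55.1 and 51 in H+H+Cd, and Ttll6-201 at 7.84, 11.8 and 13.1 against 6.32, 4.98 and 3.29 (adjusted p = 0.60 and 0.516 in limma). Ttll6-202 thus held 77.0% to 85.9% of the gene in H+Cd and 88.5% to 93.9% in H+H+Cd. Its coding sequence has 2469 bases and that of Ttll6-201 has 2157. The sum of both overlapped, at 51.7 to 56.9 FPKM in H+Cd and 54.3 to 60.1 in H+H+Cd.

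Shifts of the same size or larger also occurred between testes of 1 group. In 15 of the 25 members with several transcripts the same transcript led in all 6 libraries, and in 10 it did not. Agbl2-204 held 78.7%, 17.7% and 83.7% of Agbl2 in H+Cd and 76.9%, 78.3% and 9.93% in H+H+Cd, with Agbl2-202 taking its place in H+Cd 2 and H+H+Cd 3. These transcripts have the same number of coding bases (2589) and differ by 3 and 17 bases near their start. Katna1-202 held 43.1% to 95.5% of Katna1 and differs from Katna1-201 by 1 base in the last exon (361 against 360 bases). Their coding sequences have 1482 and 1476 bases. Ttll10-202 held 69.3%, 22.4% and 85.2% of Ttll10 in H+Cd and 63.6%, 42.0% and 60.4% in H+H+Cd. The gene sums of these 3 members stayed at 38.1 to 45.5, 14.1 to 19.4 and 74.7 to 87.7 FPKM. Over the members with several transcripts, the median coefficient of variation across 6 libraries was 13.8% for the sum and 18.5% for the most abundant transcript. Over all 51 members that of the sum was 12.5%, beside 14.2% over all genes tested.

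**Figure D5:**
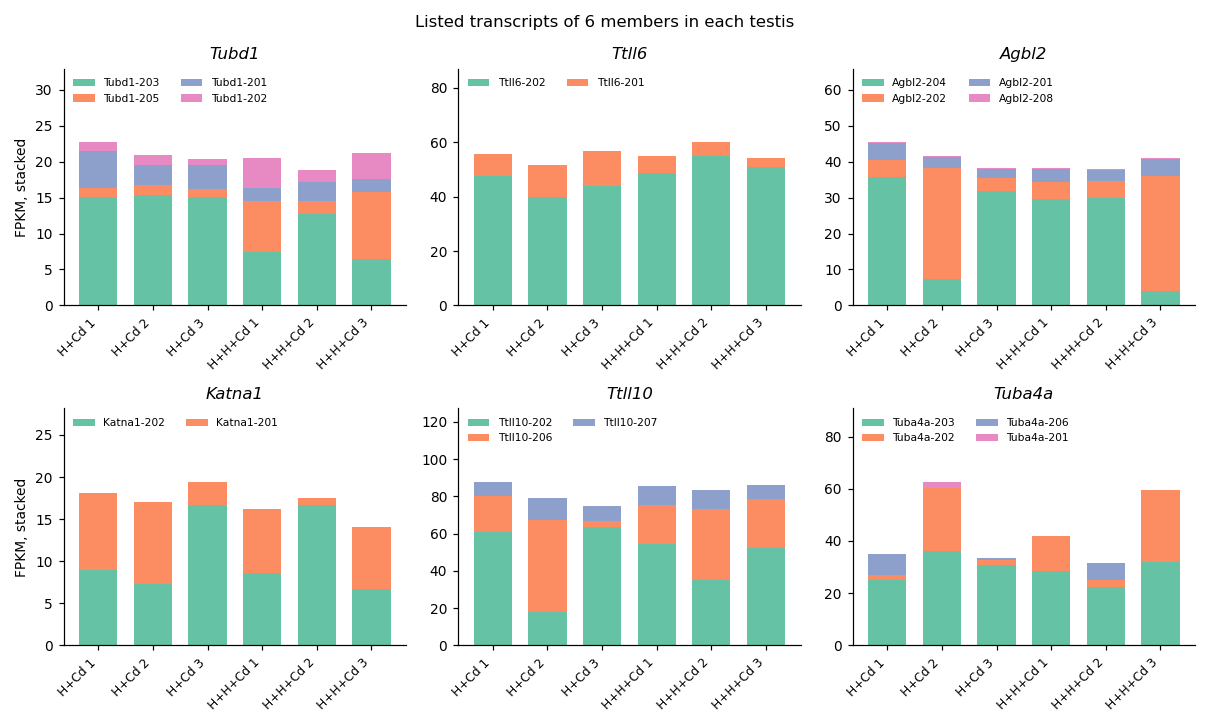
Stacked FPKM of the listed transcripts of 6 genes in each library, with no error since each bar is 1 testis. Tubd1 shifts from Tubd1-203 and Tubd1-201 in H+Cd toward Tubd1-205 and Tubd1-202 in H+H+Cd 1 and 3, whereas the leading transcript of Agbl2 changes in 1 library of each group (H+Cd 2 and H+H+Cd 3).

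Other genes of the pathway were counted from lists chosen by function. Of 7 partners and other modifiers, among them the vasohibin partner Svbp, the acetylase Atat1 and the deglutamylase Agtpbp1, 0 were at an unadjusted p below 0.05 in limma. The same held for 2 other severing enzymes and for 10 regulators of microtubule dynamics. Of 17 genes that act before or with the cofactors (prefoldin and chaperonin subunits, Arl2 and Tbcel), 1 was higher and 3 were lower at that level (23.5%, beside 11.9% of all genes), and 0 passed adjustment. The chaperonin subunit Cct4 was at 108, 126 and 132 FPKM in H+Cd and 91.6, 93.5 and 89.7 in H+H+Cd, and Cct6b, its testis-enriched relative, at 147, 158 and 165 against 128, 136 and 123. Tcp1 was at 511, 585 and 553 against 490, 484 and 500 FPKM. Pfdn6, a prefoldin subunit, was the 1 higher, at 19.9, 16.3 and 23.6 against 29.2, 23.9 and 33.0. The adjusted p of these 4 genes in limma was 0.338 to 0.399. Of 11 genes that bring the gamma tubulin ring to spindles and centrosomes, Haus1 alone was below an unadjusted p of 0.05, at 137, 158 and 175 against 123, 128 and 120 FPKM (adjusted p = 0.358 in limma).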

How the data were processed

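Testis RNA of 3 H+Cd and 3 H+H+Cd mice was compared, with groups taken from the sample labels. Per the study's methods, the authors selected poly(A) RNA, made stranded libraries, sequenced them on an Illumina instrument and estimated transcript levels with StringTie and Ballgown. The deposited table gives FPKM for 27120 transcripts, and the submitters' processing notes name the build mm10. Which aligner was used, and the versions of these tools, is not given in the sources used here.

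Identifiers without version matched GENCODE M21 for 27018 transcripts (99.6%). FPKM was summed per gene. Genes and transcripts with a mean above 0.5 FPKM in at least 1 group were tested as log2(FPKM + 1) with limma 3.58.1 in R 4.3.3 (eBayes with trend, two-sided, Benjamini-Hochberg adjustment at 0.05). A fold change on this scale understates the change of low genes. Exon structures came from the same annotation, and 2 transcripts were compared by their shared windows of 150 bases. Python 3.11.15 and pandas 2.3.3 were used, and the scripts were tested on simulated data. FPKM steps did not give whole reads, so no count test or counting interval was used. P-values set the difference between groups against the spread within groups, which limma moderates over all genes or transcripts tested. They rest on these 6 animals.

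Values in every library were given for members whose groups did not overlap or whose unadjusted p was below 0.05, for the most abundant member of each role, for the 5 cofactors and for the 4 transcripts of smallest p. Tubd1 and the other transcripts described were chosen after their values had been seen. 1 member is counted but not reported here by name. The members and lists were chosen with earlier results of these data known.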

Additional observations from a re-analysis of the deposited data

How the results depend on the processing

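Members past an adjusted p of 0.05 stayed at 0, for genes and for transcripts, under each alternative that was run. The count of 6 members at an unadjusted p below 0.05 remained 6 with quantile normalization, median-ratio rescaling, a pseudocount of 0.1, and a filter at 1 FPKM or none, was 4 without a variance trend and 7 with the F-test, and ranged from 2 to 12 as each library was left out. With the replicate number as a block it was 3, and the adjusted counts stayed at 0. After the group mean of each gene was subtracted, same-numbered libraries correlated at -0.08, 0.00 and -0.16. These values gave no sign that the numbers pair the animals, but 3 libraries per group are too few to exclude it. Of 18 named members, 16 kept their direction in all alternatives. As each library was left out, Tuba3a ran from -0.023 (without H+Cd 1; -0.022 without H+H+Cd 2) to 0.168, and Vash2 from -0.805 to 0.237 (without H+Cd 1). The most abundant transcript alone moved Tubd1 to -0.77, since the share of that transcript, Tubd1-203, was lower in H+H+Cd. Summing only transcripts of the same version lowered summed alpha tubulin to 769 FPKM in H+Cd and 782 in H+H+Cd. It lowered summed beta tubulin to 437 in H+Cd and 463 in H+H+Cd. The share of Tuba3a and Tuba3b rose to 76.7% in H+Cd and 77.7% in H+H+Cd, and that of Tubb4b to 93.9% and 94.1%. Read depth is unknown, so no limit of detection can be given for members below 1 FPKM.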

Other observations

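Hdac6, which removes acetyl groups from alpha tubulin, was at 0.0827, 0.0289 and 6.72 FPKM in H+Cd and 6.50, 5.83 and 0.421 in H+H+Cd. It was thus near 0 in 3 libraries and near 6 in the other 3, across both groups, much as Tubgcp5 and Ttll12 were low in some libraries only. Atat1, which adds these acetyl groups, was at 18, 13.7 and 13.5 FPKM in H+Cd and 18, 16.9 and 21.2 in H+H+Cd (adjusted p = 0.450 in limma).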
